A study of Homo sapiens with 9 samples.

Results

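T18 and T18V are oligo(dT) primers for reverse transcription that have the same 18 thymines and differ by a single base at the 3′ end. T18 stops after the thymines, and T18V carries 1 further base, V, the code for A, C or G. The comparison is between the 2 HEK293T libraries made with these primers, out of 9 samples in the study, and both have gene counts and a gene body coverage profile. HEK293T is an immortalised line derived from human embryonic kidney and transformed with SV40 large T antigen. Both libraries carry the genotype label WT and no treatment, and both were made by CLT-seq, a protocol that joins a second adaptor to the first-strand cDNA with a splint, from total RNA extracted with TRIzol. Reverse transcription ran for 30 min at 37 °C with 1 µM primer. The labels give the input once as 400 ng and once as 500 ng. Each primer has 1 library with no replicate number. The spread between replicate libraries is therefore unknown, and no test was made.

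An mRNA ends in a tail of adenosines added after cleavage of the transcript, and a run of thymines anneals to that tail. An unanchored primer can anneal anywhere along the tail, or along a stretch of adenines inside a transcript. In an anchored primer the base after the thymines has to pair with a base that is not A, which in a tailed mRNA is the last base before the tail. V as A pairs with T (U in the RNA), V as G with C, and V as C with G. The proportions of A, C and G in the synthesised V are not given in the sources used here. The primers as ordered are shown because every result below compares them. Both start with the same adaptor of 50 bases, in lower case, and the capitals mark the thymines and the anchor:
T18: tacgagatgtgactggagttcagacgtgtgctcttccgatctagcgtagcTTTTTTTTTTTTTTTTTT
T18V: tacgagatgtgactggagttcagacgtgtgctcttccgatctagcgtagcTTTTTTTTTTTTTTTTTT, then V

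The T18 library held 25578543 reads by the library total recovered from the deposited values, and the T18V library 7491993. Reads counted on genes were 5200859 in T18, which is 20.3% of the total (95% Wilson interval 20.32 to 20.35%), and 2811096 in T18V, which is 37.5% (37.49 to 37.56%). All intervals here describe the counting error of reads alone, and with 1 library a side they leave out the spread between libraries. PCR copies of a molecule cannot be told apart without molecular identifiers, so the intervals may also be too narrow for molecules. A count of 0 allows up to 3 reads, which is 0.622 CPM (reads per 1000000 gene reads, with ZNF557 left out) in T18 and 1.07 CPM in T18V. At an equal draw of 2811096 gene reads, 11636 genes in T18 and 11768 in T18V would have at least 5 reads, a difference of 132 genes that shrank to 8 without ZNF557. Of 12 markers of HEK293T, 11 reached 20 reads in one library or the other, and together the markers took 0.353% of gene reads in T18 and 0.342% in T18V. PEG10 was the marker at 0 in both. The 12 markers of A549, the lung carcinoma line used elsewhere in the study, summed to 1 read in T18 and 26 in T18V, of which NQO1 held 24, and 9 of them were at 0 in both.

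ZNF557, a zinc-finger gene at chr19:7069471-7087979 on the plus strand (coordinates here are as deposited, in hg19), was set apart because it filled up in T18 alone. Its reads numbered 374452 in T18, which is 7.20% of that library's gene reads, and 218 in T18V, which is 0.00775%. The other HEK293T libraries held 145 reads (T12), 105 (T30), 284 (T18VN) and 204 (T18VNN). T18 stood far above the other 5 libraries, and T18V lay among them. The deposited size of its transcript is 6002 nt, and the reference transcript, of 5736 nt, holds a longest adenine run of 15 nt and a longest thymine run of 24 nt. With ZNF557 left out, gene reads were 18.9% of the T18 total and 37.5% of the T18V total. All CPM values from here on leave ZNF557 out of the total.

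Most genes lay within 2-fold of each other in the T18 and T18V libraries, and the genes that did not were spread over both directions. With at least 20 reads in the library with the higher level, 10412 genes could be compared. T18V was at least 2-fold higher for 1436 genes (13.8%) and at least 2-fold lower for 1936 (18.6%), so 3372 genes (32.4%) lay past 2-fold. At 4-fold the counts were 307 higher (2.95%) and 515 lower (4.95%). The median log2 ratio, on the log2(CPM + 1) scale used for all log2 ratios here, was -0.03, with the middle 50% of genes between -0.72 and 0.59. Pearson's r between the libraries' log2 levels was 0.843 across these genes, which are not independent replicates. The 1436 higher genes held 15.4% of T18V reads and 5.23% of T18 reads, and the 1936 lower genes held 6.83% of T18V reads and 22.1% of T18 reads. Scaling by the deposited library total in place of gene reads moves the median to 0.81 and changes the counts to 4282 higher and 366 lower, so each direction below is relative to the reads on genes. Of the 3372 genes past 2-fold, 118 had no read in T18V and 8 had none in T18.

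**Figure D1:**
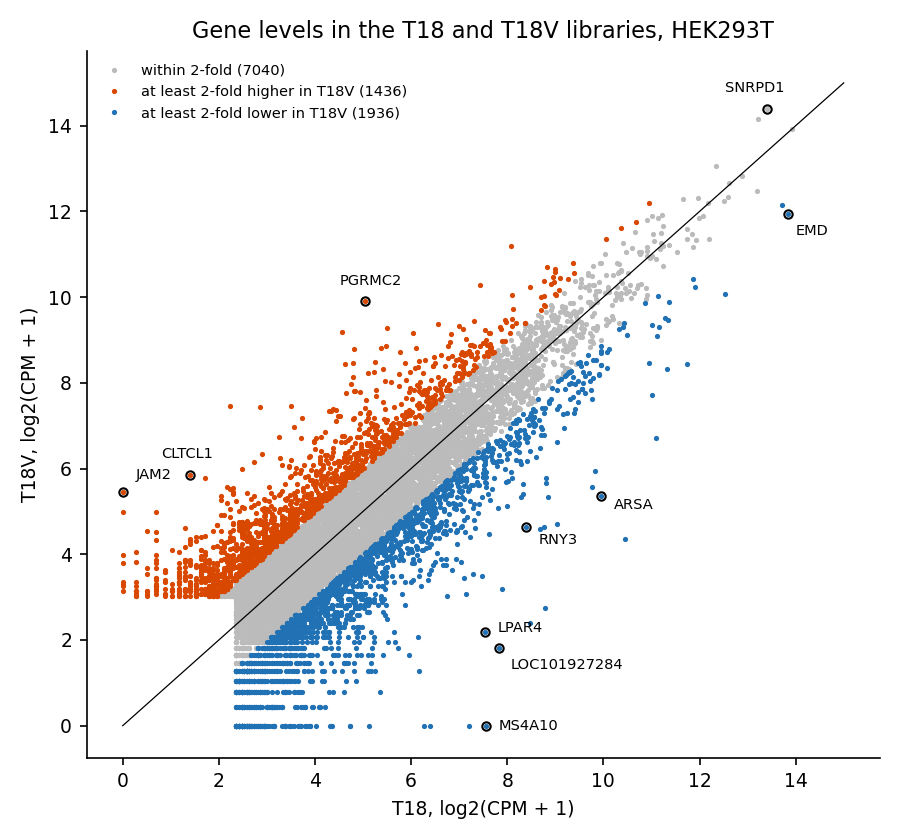
Level of each of the 10412 compared genes in T18 (horizontal axis) and T18V (vertical axis), both as log2(CPM + 1), with ZNF557 left out; the line marks equal levels. The 1436 genes at least 2-fold higher in T18V are orange, the 1936 lower genes are blue, and the genes at the bottom edge had no read in T18V.

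Of the 6 genes with most reads in each library once ZNF557 was left out, 3 were the same (FOXC1, SNRPD1 and TUBA1B). FOXC1, a forkhead transcription factor, had the most reads in T18 after ZNF557. It lay at 1.0-fold in T18V, with 75279 reads in T18 and 43707 in T18V. HSP90AB1, a cytosolic chaperone, and CDK4, a cell-cycle kinase, also differed little, with log2 ratios of -0.06 and 0.04. SNRPD1, a core protein of the spliceosomal snRNPs, had the most reads in T18V, with 52160 reads in T18 and 60411 in T18V, and was 1.99-fold higher (95% interval 1.97 to 2.01). TUBA1B, an alpha-tubulin, was 1.90-fold higher (1.88 to 1.93), and NCL, the nucleolar protein nucleolin, was 1.66-fold higher. NCL and CDK4 overlap another gene in the deposited annotation, so part of their reads may belong to it. EMD, which encodes the inner nuclear membrane protein emerin (chrX:153607597-153609883), went the other way. It had 70327 reads in T18 and 10967 in T18V and was 3.73-fold lower (3.66 to 3.81). HNRNPA0, an RNA-binding hnRNP protein, had 65216 reads in T18 and 12852 in T18V and was 2.96-fold lower (2.90 to 3.01). GNL3L, a nucleolar GTPase, was 1.64-fold lower.

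Where the library with the higher level had 100 reads or more, the highest ratio was that of JAM2, an adhesion molecule of cell junctions, at chr21:27011594-27089874. JAM2 had 0 reads in T18 and 121 in T18V (43.05 CPM), at least 69.3-fold higher against the limit that a count of 0 allows. In the other libraries it was at 1.84 CPM (T12), 8.57 (T30), 11.2 (T18VN) and 0.278 (T18VNN), so T18V lay above all of them. PGRMC2, a haem-binding membrane protein at chr4:129190392-129209984, had 31.7 CPM in T18 and 957 in T18V and was 30.2-fold higher (25.6 to 35.8). Its levels with the other primers were 30.6 CPM (T12), 13.1 (T30), 341 (T18VN) and 497 (T18VNN), with every anchored library above every unanchored one. CLTCL1, a second clathrin heavy chain, stood at 1.66 CPM in T18 and 56.6 in T18V, a 34.1-fold difference (16.9 to 80.4). It also lay at 65.8 and 68.1 CPM in T18VN and T18VNN, and at 2.76 and 5.42 in T12 and T30. TMEM9 was 13.3-fold higher, KCNJ4, an inward-rectifier potassium channel, 13.7-fold, NECTIN1, an adhesion molecule, 12.4-fold, and RFX1, a transcription factor, 11.1-fold. For these 4 genes the anchored libraries likewise all lay above the unanchored ones. SLC68A1 stood out in T18V alone among the primers, with 349 CPM against 23.8 in T18, 25.9 in T18VN and 24.7 in T18VNN. FIS1, a mitochondrial fission protein, was at 125 CPM in T18V, 10.8 in T18, 81.2 in T18VNN and 4.69 in T18VN, so the anchored libraries did not share its level.

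At the low end, T18V had no read for MS4A10, SLC4A1, KIAA0825 or VENTX, among others. LPAR4, a lysophosphatidic acid receptor at chrX:78003206-78012588, had 185 CPM in T18 and 3.56 in T18V and was 52.01-fold lower (28.1 to 109). It stood at 242 CPM in T12 and 1588 CPM in T30, and at 5.13 and 1.11 CPM in T18VN and T18VNN. The long noncoding RNA LOC101927284 had the same order, with 225 CPM in T18 and 2.49 in T18V, a 90.3-fold difference (43.7 to 225). ARSA, the lysosomal arylsulfatase A, had 4772 reads in T18 and 112 in T18V and was 24.8-fold lower (20.6 to 30.2), again with both other unanchored libraries above both other anchored ones. KIAA0825 was at least 31.8-fold lower in T18V, with the unanchored libraries between 33.98 and 211 CPM.

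Some of the lowest ratios came from T18 standing alone. MS4A10 had 907 reads in T18, 6 in T30 and 0 in the other 4 libraries. SLC4A1, the anion exchanger of red blood cells, had 366 reads in T18, 6 in T12, 10 in T30 and 0 in every anchored library. VENTX, a homeobox gene, had 124 reads in T18, 23 in T12, 1 in T18VNN and 0 in T30, T18V and T18VN. The reference transcripts of MS4A10 and VENTX hold thymine runs of 27 and 23 nt, and that of SLC4A1 an adenine run of 28 nt, though for VENTX the reference is 2911 nt long and the deposited size 2412 nt. Those of JAM2 and SLC68A1, which stood highest in T18V, hold thymine runs of 19 and 18 nt, though for SLC68A1 the reference is 2852 nt long and the deposited size 2834 nt. Where T18 was at least 2-fold above all others, 8.05% of genes with a sequence held a thymine run of 18 nt or more. Over all compared genes it was 5.91%, and where T18V was at least 2-fold above all others it was 3.57%. For adenine runs of that length the share was 6.04% where T18 was above all others. It was 5.00% over all compared genes and 1.19% where T18V was above all others. Blood cell markers summed to 16 reads in T18 and 11 in T18V, with HBB, HBA1 and HBA2 at 0 in both libraries. VPS8, a subunit of an endosomal tethering complex, and HSD17B11, a steroid dehydrogenase of lipid droplets, were lowest in T18V of all 6 libraries, at 1.42 and 8.18 CPM. Their T18 levels were 70.4 and 236 CPM, and T18VN and T18VNN lay between (9.37 and 8.90 CPM for VPS8, 41.7 and 66.5 for HSD17B11).

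**Figure D2:**
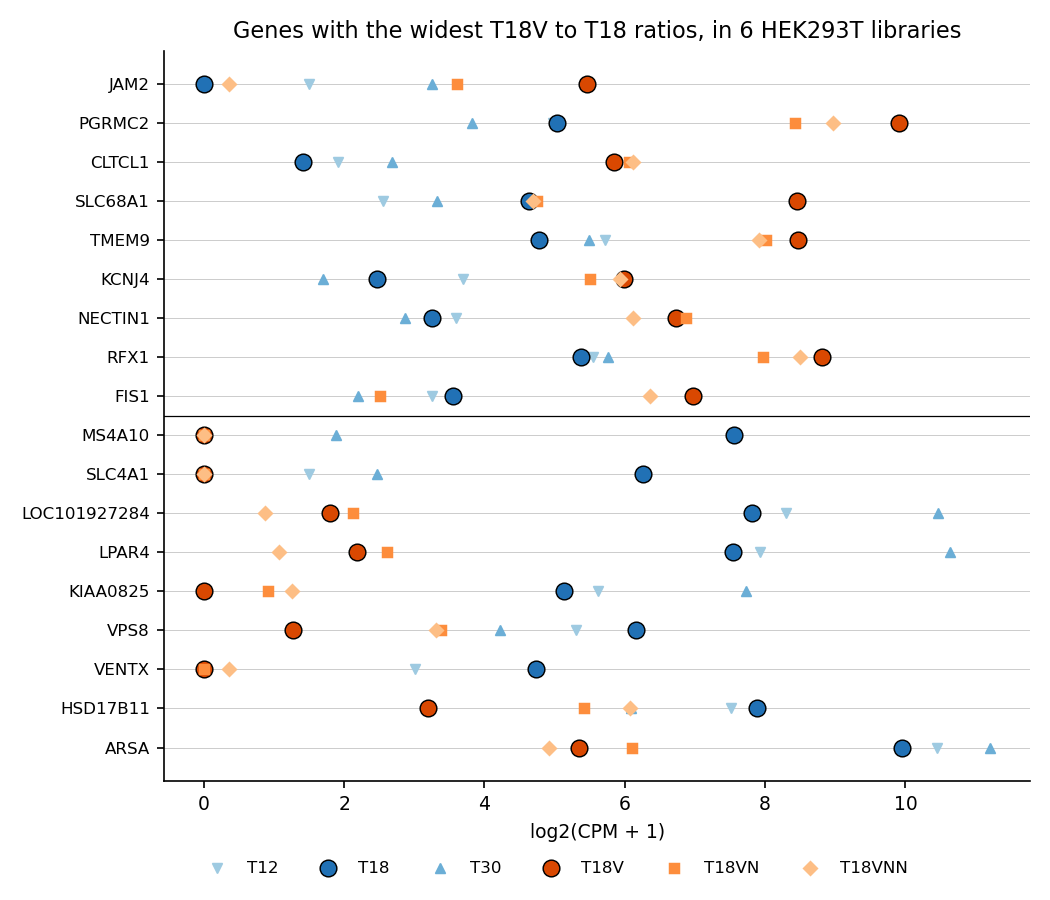
Levels, as log2(CPM + 1), of named genes with the highest (top) and the lowest (bottom) T18V to T18 ratios (100 reads or more in the higher library), in the 6 HEK293T libraries. PGRMC2, CLTCL1 and LPAR4 split the orange anchored from the blue unanchored libraries, while MS4A10 has its 907 reads in T18 and JAM2 its peak in T18V.

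The 4 HEK293T libraries of the other primers share no reads with T18 or T18V, so they show how far the differences recur when other primers with and without an anchor are used. Primers are not replicates, and these values are given as a description. T18VN and T18VNN both lay above both T12 and T30 for 30.4% of the 10412 genes and both below for 15%. Among the 1436 genes higher in T18V, they lay above for 755 genes (52.6%) and below for 57 (3.97%). Among the 1936 genes lower in T18V, they lay below for 537 genes (27.7%) and above for 303 (15.7%). The median log2 difference between the 2 other anchored and the 2 other unanchored libraries was 0.22 over all compared genes, 0.86 over the higher genes and -0.16 over the lower genes. Spearman's correlation between the T18V to T18 ratio and that difference was 0.334 across the 10412 genes. In the other direction, T18V was at least 2-fold below all 5 other libraries for 305 genes and at least 2-fold above all of them for 85, and T18 was above all others for 160 and below all for 57.

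The base that precedes the tail is the one an anchor pairs with, and genes with a T there had a lower median ratio than genes with C or G. The last base was read from the reference transcript (GENCODE release 29, matched by symbol, with trailing A removed) for 10219 of the 10412 genes (98.1%), and 1 annotated end was used per gene, so alternative ends were not seen. The 3773 genes whose last base was T had a median log2 ratio of -0.31, and 25.7% of them were at least 2-fold lower in T18V against 10.2% higher. Over all compared genes the shares were 18.6% lower and 13.8% higher. The 3461 genes ending in C had a median of 0.16, with 13.2% lower and 16.9% higher, and the 2985 ending in G a median of 0.12, with 14.7% lower and 15.1% higher. Of the 1936 lower genes, those with a sequence ended in T in 51.9% of cases, compared with 27.01% of the higher genes. By the last 2 bases, all 4 pairs ending in T had negative medians, from -0.22 for CT to -0.39 for TT, and all 8 pairs ending in C or G had positive medians, from 0.04 for AG to 0.27 for CC. Restricted to 3237 genes whose reference transcript was within 10 nt of the deposited size, the median was -0.38 for T, 0.15 for C and 0.18 for G. GC content differed with the last base as well, with a median of 46.9% for T, 51.1% for C and 50.8% for G. Medians of the log2 ratio over bins of GC content ran from -0.08 to 0.09, and the part of GC content in the result was not tested.

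As shares of the reads on genes with a sequence, T-ending genes took 37.1% in T18 and 32.6% in T18V. The other 4 libraries lay between 36.6% and 38.3%, so T18V stood below all of them, including T18VN (37.7%) and T18VNN (36.6%), whose primers also carry V after the thymines. C-ending genes took 35.7% in T18 and 39.3% in T18V, with the other 4 between 34.6% and 36.7%. G-ending genes took 27.2% in T18 and 28.01% in T18V, where the other 4 ran from 26.7 to 27.9%. Between the other anchored and unanchored libraries, the median log2 difference was 0.21 for T-ending, 0.27 for C-ending and 0.19 for G-ending genes. Of the 305 genes for which T18V was at least 2-fold below all 5 other libraries, 293 had a sequence and 193 of these (65.9%) ended in T, compared with 36.9% of all compared genes. The share was 26.2% among the genes for which T18V lay above all others.

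The last 20 bases before the tail are shown for genes whose reference transcript is within 10 nt of the deposited size. They are on the sense strand in DNA letters, and the capital is the base an anchor has to pair with. JAM2, MS4A10, SLC4A1 and VPS8 are included because they go against the pattern, and EIF3F was chosen after its values were seen.
HSD17B11: ataataaatggatcacactT
EIF3F: gagcctaccttttgtaaatT
JUNB: aaaaaaattggttctttatT
PGRMC2: tgttctgtagataattcctC
CLTCL1: taaagtcggtttatccaggC
KCNJ4: tggagacagatggagacacC
JAM2: aagtctacactaataaaaaT
MS4A10: tcaataaaggttgaaacggC
SLC4A1: cgtatctgtgttggagtggC
VPS8: gtttaagttctgcaggtctC
The first 3 end in T and were lower in T18V. EIF3F, a subunit of translation initiation factor eIF3 at chr11:8008867-8017718, had 157 CPM in T18 and 26.7 in T18V, with the other libraries at 219 (T12), 135 (T30), 133 (T18VN) and 71.2 CPM (T18VNN). PGRMC2, CLTCL1 and KCNJ4 end in C and were higher in T18V, as given above. JAM2 ends in T and had its highest level in T18V, while MS4A10, SLC4A1 and VPS8 end in C and were lower in T18V. The 10 genes with the lowest ratios did not follow the medians: 9 had a sequence, of which 7 ended in C and 1 in T. Of the 10 with the highest ratios, 6 ended in C and 3 in T. Over all compared genes with a sequence, 33.9% ended in C and 36.9% in T. EMD, HNRNPA0 and RHOA, a small GTPase with 2474 CPM in T18 and 736 in T18V, are also T-ending by the reference, but their reference transcripts are not within 10 nt of the deposited size.

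Long runs of adenine inside a transcript are a second place where thymines can anneal. Runs were searched in the reference transcript, which was within 10 nt of the deposited size for 3237 of the 10219 genes with a sequence, so for the others the counted transcript may differ. Genes whose longest run was 5 nt or less had a median log2 ratio of 0.06, and the medians were 0.08 for 6 to 7 nt and 0.06 for 8 to 9 nt. Above that they went down, to -0.13 for 10 to 12 nt, -0.32 for 13 to 17 nt and -0.51 for the 511 genes with a run of 18 nt or more. Over the genes within 10 nt alone, the median was 0.10 at 5 nt or less and -0.55 for 157 genes at 18 nt or more. Of the 511 genes, 31.3% were at least 2-fold lower in T18V and 3.52% higher, beside 18.6% and 13.8% of all compared genes. The other anchored and unanchored libraries differed by a median of -0.20 for the genes with 18 nt or more, against 0.11 for those with 5 nt or less. Reads on genes with a run of 18 nt or more were 6.74% in T18, 4.32% in T18V, 4.98% in T12, 6.98% in T30, 4.24% in T18VN and 4.12% in T18VNN, so T18 and T30 were high and the anchored libraries low. Runs of thymine had a smaller gradient, from 0.04 at 5 nt or less to -0.14 at 18 nt or more. Genes with long adenine runs had longer transcripts, with a median of 5387 nt at 18 nt or more and 2175 nt at 5 nt or less. Spearman's correlation between transcript size and the log2 ratio was -0.04 across the compared genes, and the part of transcript length in the result was not tested.

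A last base of T had the lowest median in genes with short and with long adenine runs. Among genes with a run of 9 nt or less, the median was -0.25 for a last base of T, 0.26 for C and 0.22 for G. Among genes with a run of 18 nt or more it was -0.66 for T, -0.40 for C and -0.39 for G. The 537 genes that were lower in T18V and also lower in the other anchored pair ended in T in 54.1% of cases with a sequence and held a run of 18 nt or more in 11.8%, compared with 36.9% and 5.00% of all compared genes.

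**Figure D3:**
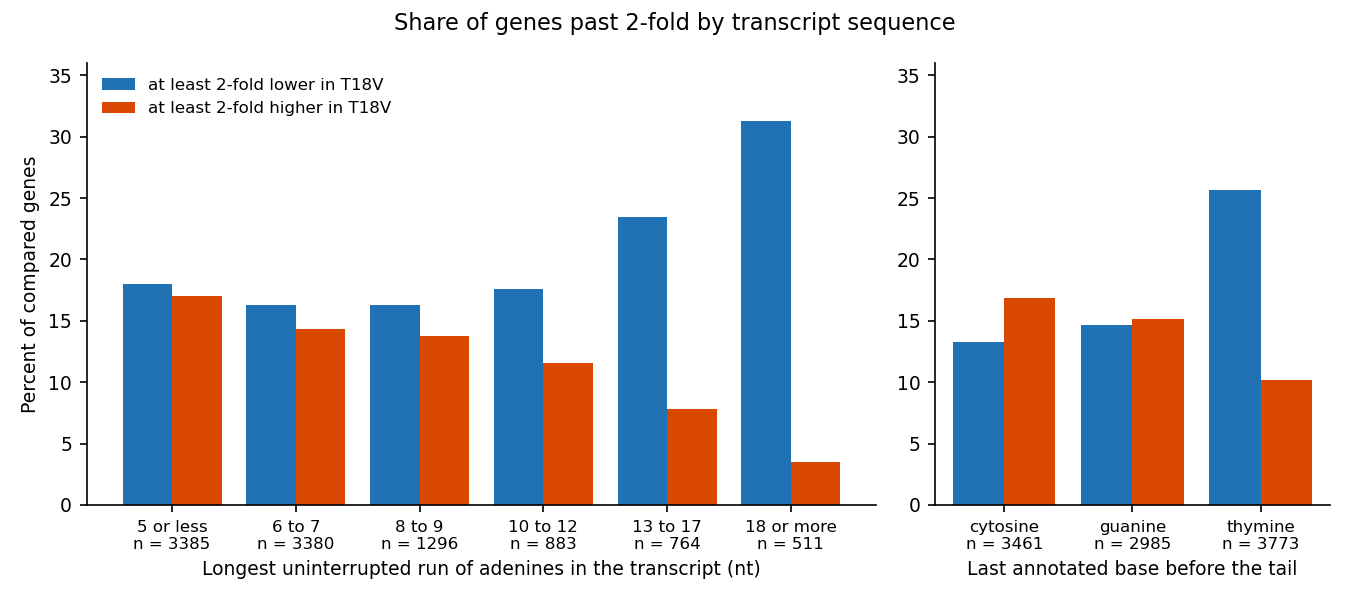
Percent of compared genes at least 2-fold lower (blue) and higher (orange) in T18V, by the longest adenine run in the transcript (left) and by the last annotated base before the tail (right), with the number of genes under each bin. Lower genes reach 31.3% at runs of 18 nt or more and 25.7% for genes ending in thymine, beside 18.6% of all compared genes.

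**Figure D4:**
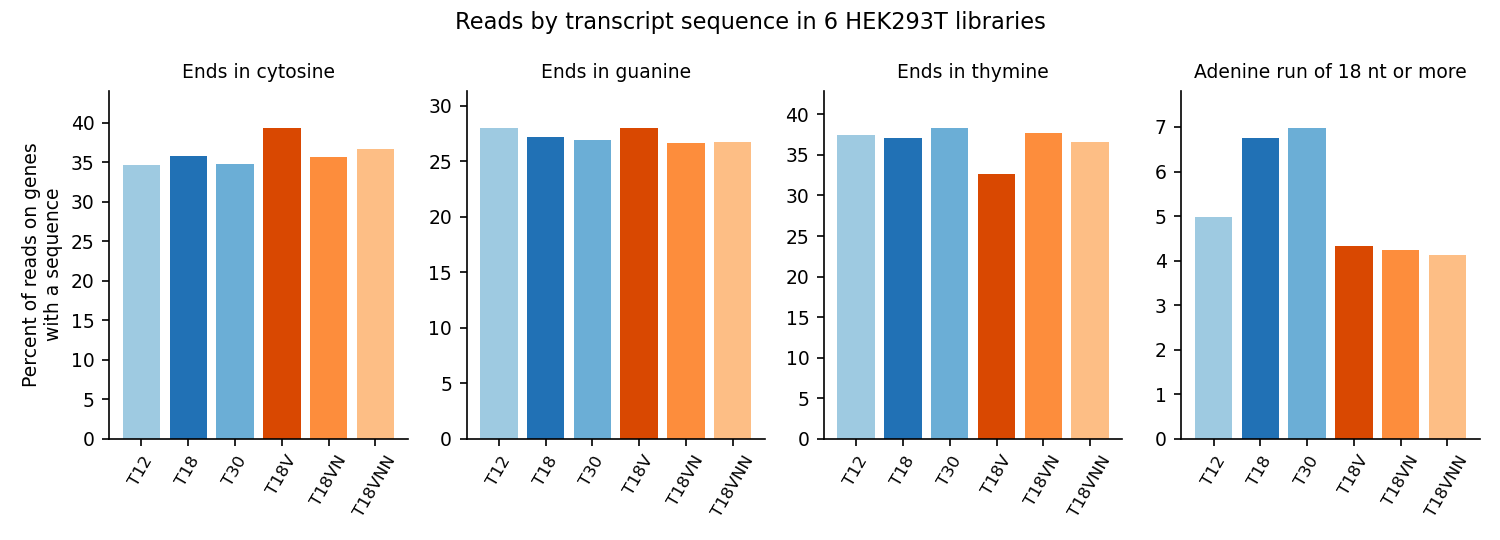
Percent of reads on genes with a sequence that fell on genes ending in cytosine, guanine or thymine before the tail, and on genes with an adenine run of 18 nt or more, for the 6 HEK293T libraries (1 bar per library, no replicates). T18V is lowest for thymine at 32.6%, and the 3 anchored libraries are low for long adenine runs.

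Windows of 30 bases at the longest adenine run are shown for genes with wide ratios. They are on the sense strand in DNA letters, and the capitals mark the run:
SLC4A1: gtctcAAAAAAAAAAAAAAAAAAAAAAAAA
LPAR4: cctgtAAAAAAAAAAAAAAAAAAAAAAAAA
HSD17B11: gtggtAAAAAAAAAAAAAAAcacaccaaac
ARHGAP32: tcattAAAAAAAAAAAAAAAAAAAAAAgcc
In SLC4A1 and LPAR4 the run goes on past the window, to 28 and 31 nt. The reference transcript of LPAR4 is 2611 nt long and its deposited size 2627 nt, and the other 3 are within 10 nt. ARHGAP32, a GTPase-activating protein at chr11:128834955-129062093, has a run of 22 nt and is an exception, with 10.2 CPM in T18 and 54.8 in T18V, a 5.40-fold higher level (3.89 to 7.60). ZNF302, a zinc-finger gene on chromosome 19, has the longest run among the lower genes at 49 nt, in a reference transcript of 2955 nt against a deposited size of 3153 nt. It had 2102 reads in T18 and 67 in T18V and was 18.3-fold lower (14.3 to 23.7), with 583 and 1022 CPM in T12 and T30 and 59.1 and 22.8 in T18VN and T18VNN.

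RNAs that normally carry no tail form a small set here. Of 13 compared members of a list of untailed structural RNAs, 6 were at least 2-fold lower (46.2%, beside 18.6% of all compared genes) and 1 higher (7.69%, beside 13.8%), with a median log2 ratio of -0.72 against -0.03 over all compared genes. The Y RNAs, small RNAs of the Ro ribonucleoprotein that are transcribed by RNA polymerase III, were all 4 at least 2-fold lower. Their share of gene reads was 0.0871% in T18 and 0.0190% in T18V. RNY3 was the lowest member of the list above, so the Y RNAs are not separate from that result. The 4 Y RNAs had 4202 reads in T18 and 534 in T18V, beside 5240 and 964 for the whole list. The share of lower genes in the list is therefore not read as one of untailed RNAs in general. RNY3 (chr7:148680847-148680948) had 1611 reads in T18 and 67 in T18V, and was 14-fold lower (10.97 to 18.2). It stood at 532 CPM in T12, 527 in T18VN and 333 in T18VNN, but at 18.1 in T30, so its level did not follow the anchor alone. RNY1 and RNY4 had log2 ratios of -2.24 and -1.73, and RNY5 -1.50. These genes have many near-identical copies in the genome, and counting could split their reads. RNU5B-1, a U5 snRNA of the spliceosome, was the member on the higher side, with 30 reads in T18 and 41 in T18V. Small nuclear RNAs as a class did not share the drop. Of 24 compared, 3 were at least 2-fold lower (12.5%, beside 18.6% of all compared genes) and 1 higher (4.17%, beside 13.8%). Their share of gene reads was 0.154% in T18 and 0.166% in T18V. Ribosomal RNA entries took 0.383% of gene reads in T18 and 0.203% in T18V. Small nucleolar RNAs took 0.140% in T18 and 0.315% in T18V. Even so, 12 of the 32 compared were at least 2-fold lower (37.5%, beside 18.6% of all compared genes) and 1 higher (3.12%, beside 13.8%). Of the replication-dependent histone genes, whose mRNAs end in a stem-loop in place of a tail, 3 of 69 reached 20 reads, and H4C3 had 5216 reads in T18 and 1186 in T18V. Its T18 level of 1081 CPM was above that of all other libraries, the next being T18V at 422 CPM.

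By class, protein-coding genes took 96.5% of gene reads in T18 and 96.99% in T18V. Long noncoding RNAs took 1.92% and 1.62%. Of 427 compared, 148 were at least 2-fold lower (34.7%, beside 18.6% of all compared genes) and 56 higher (13.1%, beside 13.8%), with a median of -0.40. Within a list of 18 well-known nuclear and cytoplasmic long noncoding RNAs, 10 could be compared. Of these, 3 were higher (30.0%, beside 13.8% of all compared genes) and 2 lower (20.0%, beside 18.6%). MALAT1, a nuclear speckle RNA whose mature 3′ end is not polyadenylated, had 151 CPM in T18 and 410 in T18V, while KCNQ1OT1, an imprinted antisense transcript, had 151 and 61.9 CPM. NEAT1, the scaffold of paraspeckles, differed little, with a log2 ratio of -0.17. All 3 overlap another gene in the deposited annotation.

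Groups of housekeeping genes held members on both sides of 2-fold. All 79 cytosolic ribosomal protein genes could be compared, and 7 were at least 2-fold higher (8.86%) and 10 lower (12.7%), both shares below those of all compared genes (13.8% and 18.6%), with a median of 0.04. RPL6 had 2196 reads in T18 and 4686 in T18V (log2 ratio 1.87), and RPLP1 had 4063 and 735 (-1.68). RPS20 had the lowest ratio, with 567 CPM in T18 and 154 in T18V, while the other 4 libraries lay between 498.6 and 621 CPM. The respiratory chain and ATP synthase list had a median of 0.33 over 72 compared genes, with 8 higher and 8 lower (11.1% each). ATP5F1B, the catalytic beta subunit of ATP synthase, was higher (2102 reads in T18 and 3760 in T18V), and ATP5MC1 and ATP5MC3, which both encode the c subunit of its membrane rotor, were lower (962 and 106 reads for ATP5MC1, 3052 and 551 for ATP5MC3). RPS20, ATP5F1B and ATP5MC1 overlap another gene. Among 19 reference mRNAs, 2 were higher and 2 lower (10.5% each), with a median of 0.13. GAPDH had a log2 ratio of 0.56, PPIA -0.14, ACTB -0.62 and ACTG1 1.24. UBB, a polyubiquitin gene, was lower at -1.04.

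The factors that make, bind and shorten poly(A) tails had 48 compared members, of which 5 were at least 2-fold higher (10.4%, beside 13.8% of all compared genes) and 10 lower (20.8%, beside 18.6%), shares near those of all compared genes, with a median of 0.02. Among binding proteins, PABPC1, the cytoplasmic poly(A)-binding protein, was higher, with 481 CPM in T18 and 1276 in T18V, and PABPN1, the nuclear one, was lower, with 989 and 339 CPM. Of the deadenylase complex CCR4-NOT, CNOT7 (252 and 50.2 CPM), CNOT2 and CNOT9 were lower. BTG1, which binds that complex, was the lowest at 2066 CPM in T18 and 209 in T18V, 9.87-fold lower (9.08 to 10.7). Of the cleavage and polyadenylation machinery, WDR33, CPSF3 and RBBP6 were higher, with log2 ratios of 1.34, 1.10 and 1.09. BTG1, CNOT7, CNOT2, PABPN1, PABPC1 and CPSF3 overlap another gene, so part of their reads may belong to it. Immediate early genes had a median of -0.51 over 13 compared. Here JUN was higher (614 CPM in T18 and 1369 in T18V), and JUNB (43.9 and 12.1 CPM) and IER2 (413 and 124 CPM) were lower. The shares were 7.69% higher and 15.4% lower, beside 13.8% and 18.6% of all compared genes. Host genes of small nucleolar RNAs had a median of 0.25 over 18, with SNHG9 and SNHG16 lower (11.1%) and DANCR higher (5.56%), all 3 of which overlap another gene. Of the HEK293T markers, LIN28B, EYA1, NEFL and IGF2BP3 were at least 2-fold lower in T18V, with log2 ratios of -1.22 to -1.02. These were 4 of 11 compared (36.4%, beside 18.6% of all compared genes), and none was higher (beside 13.8%).

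Of 82 compared zinc-finger genes of chromosome 19 other than ZNF557, 28 were at least 2-fold lower (34.1%, beside 18.6% of all compared genes) and 10 higher (12.2%, beside 13.8%), and the median was -0.22. ZNF302 was the lowest, and ZNF579 the highest with 24 reads in T18 and 65 in T18V. Among 41 compared mRNAs of 15000 nt or more, 11 were lower (26.8%) and 4 higher (9.76%), with a median of -0.19. The lowest was ZBTB20, a transcriptional repressor that overlaps another gene and whose reference transcript (27125 nt, deposited size 27373 nt) holds an adenine run of 25 nt. It had 2112 reads in T18 and 16 in T18V, a 76.9-fold lower level (47.2 to 135), with 610 and 2014 CPM in T12 and T30 and 16.7 and 11.1 in T18VN and T18VNN.

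Gene body coverage, deposited as 1 profile per library over 100 percentiles from the 5′ to the 3′ end, was concentrated at the 3′ end with both primers. The highest percentile was 97 in both profiles, and the summed coverage reached its midpoint at percentile 93 in both. The last 20 percentiles held 59.2% of the coverage in T18 and 61.9% in T18V. The difference of 2.71 points lay in percentiles 81 to 90, which held 4.70% in T18 and 7.74% in T18V, since the last 10 percentiles held 54.5% and 54.2%. A second, smaller rise near the middle of the transcripts was present in both, and the middle 20 percentiles held 24.8% in T18 and 22.1% in T18V. At the 5′ edge, the first percentile held 0.677% of the coverage in T18 and 0.0872% in T18V. The profiles have no measure of error, and the set of transcripts behind them is not given in the sources used here.

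**Figure D5:**
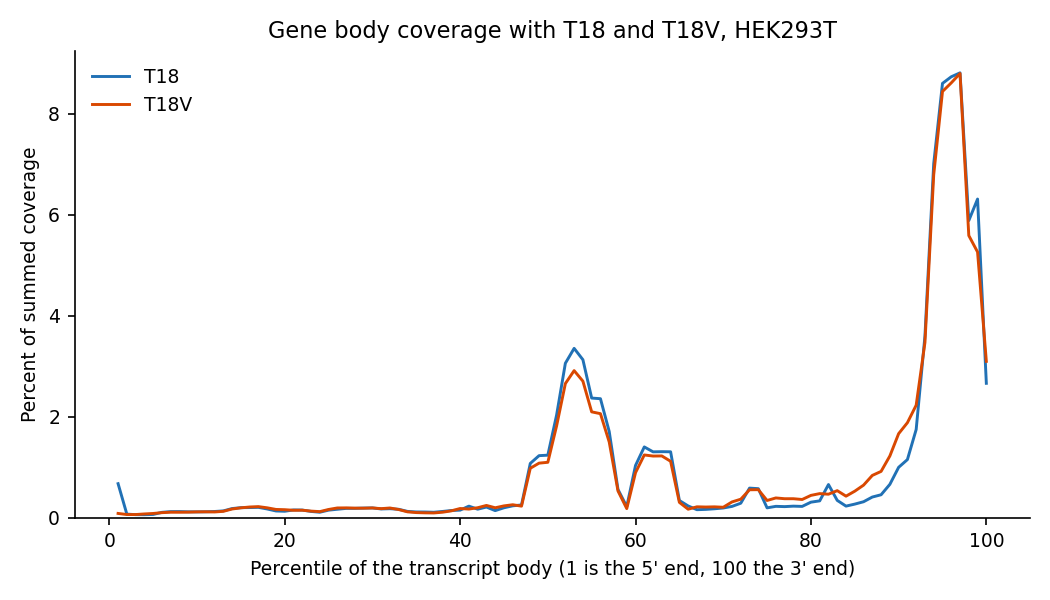
Share of the summed gene body coverage in each of 100 percentiles of the transcript, from the 5′ end (1) to the 3′ end (100), for T18 (blue) and T18V (orange). Both curves peak at percentile 97, and T18V is higher over percentiles 81 to 90, which hold 7.74% of its coverage against 4.70% in T18.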

How the data were processed

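Poly(A)-primed cDNA of HEK293T total RNA was counted in 6 libraries, of which T18 and T18V form the comparison. The submitters' processing notes name FastQC 0.11.8, cutadapt 2.10, Trimmomatic 0.39, HISAT2 2.2.1, SAMtools and the builds GRCh37 and hg19, without role or order. Per the file headers, the deposited tables hold a read count for each RefSeq transcript, with an FPM signal (the count over 1 library total) and an FPKM value that also divides by transcript size. A read counts for each transcript it overlaps, and use of strand is not given in the sources used here. The authors also deposited gene body coverage as a signal over 100 percentiles, and 12 rows of the T18VN coverage file that carry internal names were not used.

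Library totals were recovered as count over FPM. Of 61177 transcript entries, 60133 matched a symbol, and the transcript with most reads was kept for each of 26625 genes. Of these, 9052 overlap another gene and 288 lie on several sequence names. CPM was computed over gene reads without ZNF557, and log2((CPM + 1)/(CPM + 1)) for genes reaching 20 reads in the higher library. Ratio intervals are exact conditional binomial intervals at 95%. The ratio was tested on simulated data, and the intervals were not. Reference sequences are from GENCODE release 29 (GRCh38), used for letters only. Python 3.11.15, pandas 2.3.3, numpy 2.4.6, scipy 1.17.1, edgeR 4.0.16 (TMM factors) and DESeq2 1.42.0 (size factors) in R 4.3.3 were used, the last 2 for scaling alternatives alone.

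The genes compared and the lists were chosen with earlier results of these data known. Named genes were the 10 highest and 10 lowest ratios, the 5 of each that recurred in the other libraries and the longest adenine run in each direction, all with 100 reads in the higher library, on 1 sequence name and overlapping no other gene. Also named, without those limits, were ZNF557, the 6 genes with most reads in each library apart from ZNF557, and the extremes of each list (at 20 reads). Other list members were named after their values were seen. Some genes that this rule names are not reported here.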

Additional observations from a re-analysis of the deposited data

Results flagged for a closer look

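In 3 of 16 read shares set side by side over the 6 HEK293T libraries, 1 library lay far from the other 5, by the gap to the nearest library over the whole range. For like libraries and separate measures, chance would give about 1 such value in 20 measures, 0.8 here. These libraries differ in primer, and shares of 1 total depend on each other, so the 3 far values are not read against that number. In 2 of the 3 the library was T18 or T18V. The share of gene reads on ZNF557 was 7.20% in T18, and at most 0.00775% in any other library. This gene was set apart because it filled up in T18, so its value is not one to read against chance. The share of reads on genes whose last base before the tail is T was 32.6% in T18V, and 36.6 to 38.3% in the others. The other far value, in T30, concerned microRNA precursors.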

How the results depend on the processing

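The difference in the share of reads on genes (17.2 points) was 16.7 with the longest transcript per gene, 18.6 without ZNF557 and 10.8 over genes that overlap no other. The 132 more genes detected in T18V at equal depth became 77 at a minimum of 10 reads, 8 without ZNF557, and -746 at the deposited depths. Counts of higher and lower genes (1436 and 1936) were 4282 and 366 under the deposited library total, 649 and 1008 at 100 reads or more, 930 and 1262 over non-overlapping genes, and 307 and 515 at 4-fold. They were 2451 and 2521 with 1 read as the minimum, 966 and 1193 with a pseudocount of 5, and 1421 and 1623 with T18 thinned to the T18V depth. Higher genes were 42.6% of those past 2-fold, 92.1% under the library total, where the median log2 ratio was 0.81, 49.7% with ZNF557 in the totals and 49.3% with 1 read as the minimum. The cause of these changes was not tested beyond what each setting removes or rescales. The coverage difference of 2.71 points was -0.34 for the last 10 percentiles and 3.71 for the last 30, and 0.42 as a ratio of the last 20 to the middle 20. The median difference between long and short adenine runs (-0.57) was -0.47 by the longest transcript and -0.65 for transcripts near the deposited size. The difference between T-ending and other genes (-0.45) was -0.54 for transcripts near the deposited size and -0.50 for adenine runs of 9 nt or less. Settings by deposited size or run length were chosen after seeing the data. At 100 reads or more, 67.6% of higher and 37.3% of lower genes recurred in the other libraries, where 31.2% and 17.9% of all genes at that minimum had the same order. The medians of the lists, relative to all genes, stayed within the 95% interval of each list's own median in all 69 settings, although some near 0 crossed it. Scaling by another total multiplies all genes alike, so under those settings these medians could move only through the pseudocount. For the 3 compared histone genes the interval is the range of the members and falls short of 95%. Of the 45 named genes past 2-fold, 12 came within 2-fold in some setting, and none changed sign.

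No paired analysis was possible because each primer has 1 library with no replicate number. With 1 library a side, no difference between the primers can be told apart from a difference between the libraries. T18V had fewer gene reads, so low genes are less precise there.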
